A study of Rattus norvegicus with 20 samples.

Results

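Transcripts of 4 ionotropic glutamate receptor subunits were followed across the dorsal and the ventral subiculum of the rat: Grin1 (ENSRNOG00000011726), Grin2a (ENSRNOG00000033942), Grin2b (ENSRNOG00000008766) and Gria1 (ENSRNOG00000045816). They were chosen by gene ID, all 4 are among the 32883 IDs of the count table, and all 4 passed the filter on low counts. The table holds IDs without names, and 0 of its IDs matched the annotation table used here, so the symbols are those given with the IDs when the genes were chosen and were not checked.

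The animals were wild-type Wistar rats aged 3 months, and the subiculum was laser-microdissected. Controls were compared with rats sampled 24 hours after what the labels name preconditioning. By the series title this meant electrically stimulating the perforant pathway, the input from the entorhinal cortex, to evoke acute seizures. The groups were dorsal control, ventral control, dorsal preconditioning and ventral preconditioning, with 5 libraries each. What the controls underwent in place of stimulation, and whether each library came from its own animal, are not stated in the labels, so the spread between libraries may be partly technical.

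Glutamate is the main excitatory transmitter of the subiculum, the output region of the hippocampus. AMPA receptors carry the fast part of the synaptic current, and Gria1 encodes GluA1, one of their pore-forming subunits, whose insertion into synapses accompanies potentiation. NMDA receptors conduct well only when glutamate is bound while the membrane is depolarised, and they let in calcium. Grin1 encodes GluN1, which every NMDA receptor contains, whereas Grin2a and Grin2b encode GluN2A and GluN2B, alternative partners that set how long the channel stays open and what it binds inside the cell. GluN2B dominates early in life and GluN2A gains ground as the forebrain matures.

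Total counts ran from 3087146 to 20463678 per library, with a median of 11241706. Of the 14087 genes that passed the filter, dorsal control 4 held the highest value of its group for 29.8% and the lowest for 31.4%, dorsal preconditioning 2 for 28.4% and 29.6%, and ventral control 2 for 27.6% and 34.1%. Those 3 libraries stood apart most often from the rest of their groups, and estimates without them, or without another single library, are given beside a result that they move by over 1.5 times or turn. Estimates near 0, and differences between the regional responses, are given instead with their range over fits that leave out 1 library. A further fit left out those 3 libraries together with ventral control 4. Each comparison was fitted on its own groups, so it lost only those of the 4 libraries that belong to them. Ventral control 4 was highest in its group for only 11.7% of genes and lowest for 10.8%. It was the lowest ventral control for 3 of the 4 receptor genes. The tissue could not be checked against cell type markers, since the IDs carry no names.

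None of the 4 transcripts passed the test for a change after preconditioning in either region, and none passed it for a difference between the regions. Levels are given as CPM, counts relative to library size after scaling by TMM, a factor that corrects for differences in library composition. They are not divided by transcript length, so they compare one gene between libraries and not one gene with another. The tests were edgeR's quasi-likelihood F-test, fitted on all genes with Benjamini-Hochberg adjustment, and an adjusted p-value under 0.05 was called. Over 4 genes and 5 comparisons edgeR called 0 of 20 estimates. Of all genes tested it called from 0.0781% to 26.7%, depending on the comparison. An unadjusted edgeR p-value under 0.05 was found for 1 of 20, Gria1 in the ventral region. Over all genes tested, from 948 of 14087 to 5007 of 13509 had one, again depending on the comparison. DESeq2 called 0 of 20 with 1 unadjusted, also ventral Gria1. Limma-voom with sample quality weights called 0 of 20 with 3, all for Gria1 (dorsal, ventral and between control regions).

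**Figure D1:**
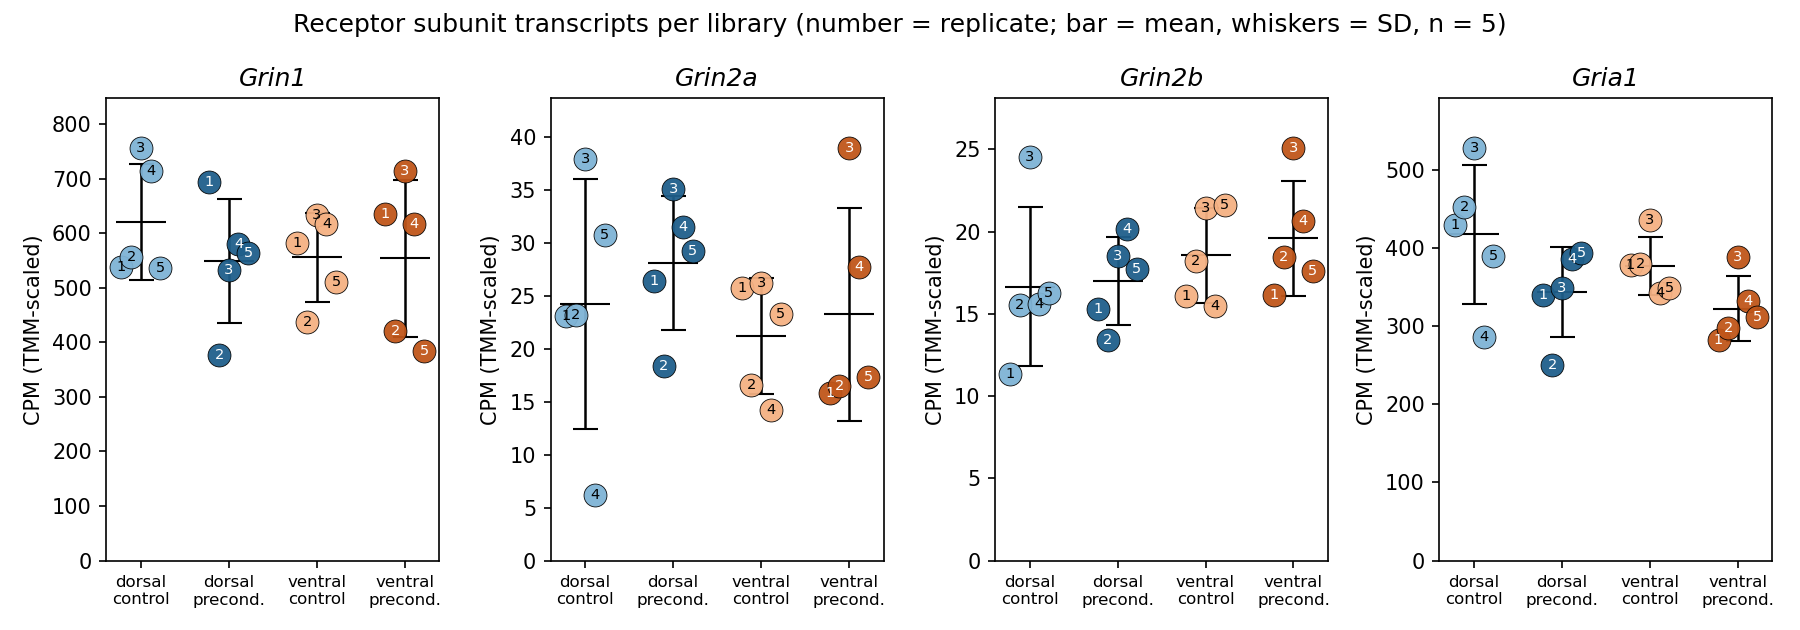
CPM (vertical axis, from 0) of Grin1, Grin2a, Grin2b and Gria1 in each library, by group. Points carry the replicate number, and the bar and whiskers give mean and SD (n = 5). The groups overlap in every panel, and dorsal control 4 lies at 6.15 CPM for Grin2a, below the other 19 libraries.

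Gria1, the AMPA receptor subunit, had the lowest preconditioned means relative to control. In dorsal controls 1 to 5 it measured 430, 453, 529, 286 and 390 CPM, and in dorsal preconditioning 1 to 5 it measured 340, 250, 349, 386 and 394 CPM. The groups overlapped: dorsal control 4 lay below 4 of the 5 preconditioned libraries, and dorsal preconditioning 2 lay below all controls. The means were 417 ± 89.2 CPM in controls and 344 ± 57.3 CPM after preconditioning (SD, n = 5 each). The edgeR log2 fold change was -0.29 (SE 0.16, 95% interval -0.63 to 0.05, unadjusted p = 0.0904, adjusted p = 0.706). Single libraries moved it both ways. It was -0.39 without dorsal control 4 (SE 0.13, unadjusted p = 0.00796, adjusted p = 0.294). It was -0.19 without dorsal preconditioning 2 (SE 0.14, unadjusted p = 0.202) and -0.19 without dorsal control 3 (SE 0.15, unadjusted p = 0.234). In 19 alternative fits the dorsal estimate ran from -0.39 to -0.19, with an unadjusted p-value under 0.05 in 3 and 0 called.

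In ventral controls 1 to 5 Gria1 measured 378, 379, 436, 343 and 348 CPM, and in ventral preconditioning 1 to 5 it measured 282, 298, 389, 333 and 312 CPM. Of the preconditioned libraries 4 lay below every control, and ventral preconditioning 3 lay inside the control range. The means were 377 ± 36.8 and 323 ± 41.6 CPM (SD, n = 5 each). The log2 fold change was -0.23 (SE 0.10, 95% interval -0.44 to -0.0059), which corresponds to 0.855-fold (interval 0.735 to 0.996). The unadjusted edgeR p-value of 0.0449 did not survive adjustment over 13291 genes (adjusted p = 0.264), and 2394 of those genes had an unadjusted p-value under 0.05. In 19 alternative fits the estimate ran from -0.30 to -0.18, with an unadjusted p-value under 0.05 in 9 and 0 called.

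Grin1, the obligatory NMDA receptor subunit, had the estimate nearest to 0 in the ventral region. It ran from 438 to 633 CPM in ventral controls, with a median of 581, and from 384 to 714 CPM after preconditioning, with a median of 616. The preconditioned range enclosed the control range, with 2 libraries above all controls and 2 below. The ventral log2 fold change was -0.0060 (SE 0.16, 95% interval -0.35 to 0.34, adjusted p = 0.993), so the interval spanned 0.785-fold to 1.26-fold. With 1 library left out it ran from -0.11 to 0.10. In the dorsal region Grin1 ran from 537 to 757 CPM in controls and from 377 to 693 CPM after preconditioning. There 2 preconditioned libraries lay below all controls, and the log2 fold change was -0.18 (SE 0.15, 95% interval -0.51 to 0.15, adjusted p = 0.837). This estimate was -0.07 without dorsal preconditioning 2, -0.10 without dorsal control 3 and -0.28 without dorsal preconditioning 1. Without dorsal control 4 and dorsal preconditioning 2 together it was -0.01, and with limma-voom it was -0.05.

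Grin2a, which encodes GluN2A, was the most scattered of the 4. In dorsal controls 1 to 5 it measured 23.1, 23.2, 37.9, 6.15 and 30.7 CPM, and in dorsal preconditioning 1 to 5 it measured 26.4, 18.4, 35.1, 31.5 and 29.2 CPM. Dorsal control 4 was far below the rest on 58 counts, for which counting error alone gives a coefficient of variation of 13.1%. The log2 fold change was 0.20 (SE 0.33, 95% interval -0.52 to 0.91, adjusted p = 0.931). The estimate depended on single libraries and on the fit. Without dorsal control 4 it was -0.04 (SE 0.18, adjusted p = 0.972), and without dorsal control 3 it was 0.41. Without dorsal control 4 and dorsal preconditioning 2 together it was 0.08 (SE 0.15, adjusted p = 0.906). Without dorsal preconditioning 2, dorsal control 5 or dorsal preconditioning 3 it was 0.32, 0.31 or 0.11. With the number as a block it was 0.33, though 0 of 5 same-numbered pairs of control and preconditioned libraries correlated above 0.1. Without dorsal control 4 the control mean moved from 24.2 ± 11.8 (SD, n = 5) to 28.7 ± 7.09 CPM (SD, n = 4), beside 28.1 ± 6.33 CPM after preconditioning (SD, n = 5).

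In ventral controls 1 to 5 Grin2a measured 25.7, 16.6, 26.2, 14.2 and 23.3 CPM, and in ventral preconditioning 1 to 5 it measured 15.8, 16.5, 39.0, 27.7 and 17.3 CPM. Preconditioned libraries 3 and 4 lay above all controls and the other 3 lay inside the control range. The log2 fold change was 0.15 (SE 0.25, 95% interval -0.40 to 0.69, adjusted p = 0.831). It turned to -0.11 without ventral preconditioning 3 (SE 0.21, adjusted p = 0.840), and also to -0.11 without ventral controls 2 and 4 together (SE 0.26, adjusted p = 0.857). With 1 library left out at a time it ran from -0.11 to 0.25, at 0.08 without ventral control 2 and 0.02 without ventral control 4, and with limma-voom it was 0.28.

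Grin2b, which encodes GluN2B, had small estimates in both regions, and the dorsal one moved with the fit. It ran from 11.3 to 24.6 CPM in dorsal controls, with a median of 15.6, and from 13.4 to 20.1 CPM in dorsal preconditioning, with a median of 17.7. The preconditioned range lay inside the control range, and the log2 fold change was 0.02 (SE 0.19, 95% interval -0.38 to 0.43, adjusted p = 0.990). It was 0.27 with limma-voom (SE 0.17, adjusted p = 0.529) and 0.21 without dorsal control 3. With 1 library left out its sign turned in 3 of 10 fits, to at most 0.083 below 0. In the ventral region it ran from 15.5 to 21.6 CPM in controls and from 16.2 to 25.1 CPM after preconditioning. Ventral preconditioning 3 was the only library of its group above all controls, and the log2 fold change was 0.07 (SE 0.14, 95% interval -0.24 to 0.38, adjusted p = 0.863). The interval spanned 0.848-fold to 1.30-fold, and with 1 library left out the estimate ran from -0.026 to 0.13.

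In the dorsal comparison 0 of the 4 genes were called, where edgeR called 0.271% of 13647 genes. In the ventral comparison 0 of 4 were called, where it called 5.06% of 13291 genes. The group ranges were separate for 0 of the 4 genes in both comparisons, against 2.26% of all genes tested in the dorsal and 6.79% in the ventral region. Shares of that size leave 0 of 4 without meaning for these genes in particular. The median log2 fold change of the 4 genes was -0.08 in the dorsal region, beside -0.0073 over all genes tested, and 0.03 in the ventral region, beside -0.01. In bulk tissue, fewer cells of a type and less RNA per cell cannot be told apart, which holds for every value here.

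**Figure D2:**
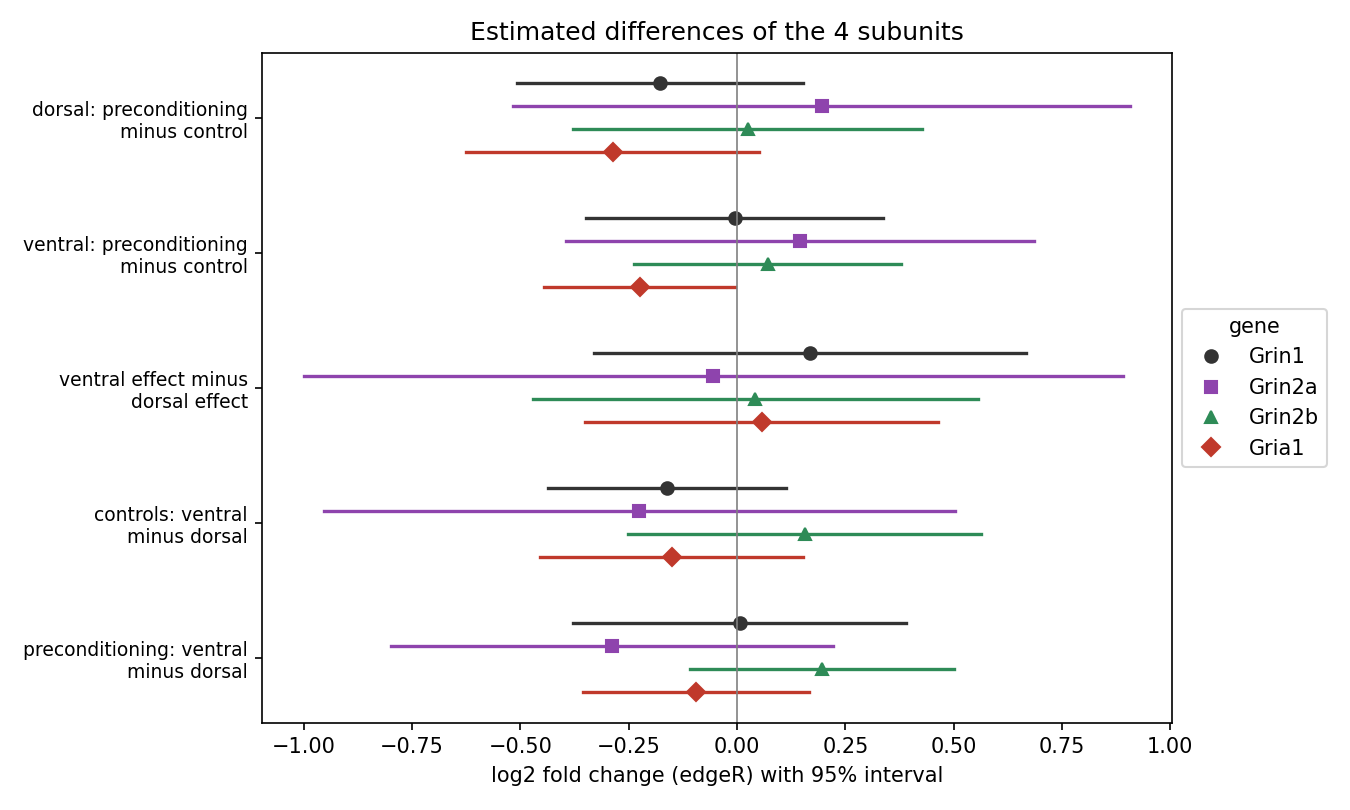
edgeR log2 fold changes (horizontal axis) with 95% intervals for the 4 genes in the 5 comparisons. All adjusted p-values exceed 0.05. The ventral Gria1 interval ends at -0.0059, just below 0, and Grin2a has the widest intervals.

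Whether the regions responded differently was tested as an interaction, the ventral minus the dorsal treatment effect, over all 20 libraries. For Grin1 the difference was 0.17 (SE 0.24, 95% interval -0.33 to 0.67, adjusted p = 0.941) on the log2 scale. For Grin2a it was -0.05 (SE 0.46, 95% interval -1.0 to 0.89), the least precise of the 4. Grin2b gave 0.04 (SE 0.25, 95% interval -0.47 to 0.56) and Gria1 gave 0.06 (SE 0.20, 95% interval -0.35 to 0.46), with edgeR adjusted p-values of 0.986 and 0.981. In this test 0 of 4 genes were called, where 0.0781% of 14087 genes were called. The Gria1 estimates of the regions, -0.29 and -0.23, differed by less than the standard error of their difference. With 1 library left out, the interaction ran from 0.06 to 0.28 for Grin1, -0.32 to 0.19 for Grin2a, -0.14 to 0.16 for Grin2b and -0.042 to 0.17 for Gria1.

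The regions were then compared without stimulation. Grin1 averaged 556 ± 81.2 CPM in ventral and 620 ± 106 CPM in dorsal controls (SD, n = 5 each), with a log2 difference of -0.16 (SE 0.13, 95% interval -0.44 to 0.11, edgeR adjusted p = 0.388). Gria1 averaged 377 ± 36.8 CPM in ventral and 417 ± 89.2 CPM in dorsal controls, a log2 difference of -0.15 (SE 0.14, adjusted p = 0.471). Both means were lower in the ventral region, with overlapping ranges. The Grin1 difference was -0.08 without dorsal control 3, -0.08 without ventral control 2 and -0.01 with limma-voom. Grin2b went the other way, with 18.6 ± 2.88 CPM in ventral and 16.7 ± 4.83 CPM in dorsal controls, a log2 difference of 0.16 (SE 0.19, adjusted p = 0.598). It was 0.34 without dorsal control 3, 0.04 without dorsal control 1 and 0.10 without ventral control 5.

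Grin2a averaged 21.2 ± 5.47 CPM in ventral and 24.2 ± 11.8 CPM in dorsal controls (SD, n = 5 each), a log2 difference of -0.23 (SE 0.34, 95% interval -0.95 to 0.50, edgeR adjusted p = 0.673). Dorsal controls 3 and 4 moved this value in opposite directions. Without dorsal control 4 the difference was -0.48 (SE 0.20, unadjusted p = 0.0359, adjusted p = 0.104), and without dorsal control 3 it was -0.0036 (SE 0.34, unadjusted p = 0.992). It was -0.12 without dorsal control 5, -0.15 without ventral control 2 and -0.10 without ventral control 4. The Gria1 difference was -0.26 without dorsal control 4 (SE 0.11, unadjusted p = 0.0299, adjusted p = 0.0904) and -0.05 without dorsal control 3 (SE 0.13, unadjusted p = 0.709). None of these was called. In this comparison edgeR called 25.7% of 13509 genes and 0 of the 4 receptor genes, and the ranges were separate for 18.9% of genes and 0 of the 4.

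Control libraries with the same number deviated from their group means together, so the regions were also compared within numbers. Grin1 and Gria1 were each lower in the ventral library in 4 of 5 pairs, with median log2 differences of -0.21 and -0.18. Grin2a was lower in 3 of 5 pairs, with differences from -0.53 to 1.19. The highest of these was pair 4, which holds dorsal control 4. Grin2b was higher in the ventral library in 3 of 5 pairs, with differences from -0.20 to 0.50. The edgeR fit with the number as a block called 0 of the 4, with smaller standard errors for all 4. Between control regions it gave -0.16 for Grin1 (SE 0.09, unadjusted p = 0.0893, adjusted p = 0.171). It gave -0.13 for Gria1 (SE 0.09, adjusted p = 0.312) and 0.17 for Grin2b (SE 0.14, adjusted p = 0.370). For Grin2a it gave -0.06 (SE 0.22, adjusted p = 0.852), beside -0.23 without the block. With the block the Grin2a interaction was -0.27 (SE 0.27, adjusted p = 0.745), beside -0.05. The Grin1 interaction was 0.15 (SE 0.16, adjusted p = 0.749), beside 0.17. For the interaction the block also paired preconditioned libraries by number, which did not pair by the rule used.

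After preconditioning, Grin2a averaged 23.3 ± 10.1 CPM in the ventral and 28.1 ± 6.33 CPM in the dorsal region (SD, n = 5 each). Ventral preconditioning 1, 2 and 5 lay below all 5 dorsal libraries, ventral preconditioning 3 lay above them, and number 4 lay among them. The log2 difference was -0.29 (SE 0.24, 95% interval -0.80 to 0.22, edgeR adjusted p = 0.418). Without ventral preconditioning 3 it was -0.55 (SE 0.19, unadjusted p = 0.0133, adjusted p = 0.0514), just short of the threshold. It was -0.18 without ventral preconditioning 1 and -0.18 without ventral preconditioning 2. No other alternative for any of the 4 genes came as near to a call as the fit without ventral preconditioning 3. With the number as a block in edgeR the difference was -0.34 (SE 0.14, unadjusted p = 0.0265, adjusted p = 0.0764). The numbers did not pair these libraries by the rule used.

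Grin2b averaged 19.6 ± 3.49 CPM in the ventral and 17.02 ± 2.68 CPM in the dorsal region after preconditioning, a log2 difference of 0.20 (SE 0.14, 95% interval -0.11 to 0.50, edgeR adjusted p = 0.350). Ventral preconditioning 3 and 4 lay above all dorsal libraries, and the difference was 0.10 without ventral preconditioning 3 and 0.12 without dorsal preconditioning 2. Gria1 averaged 323 ± 41.6 and 344 ± 57.3 CPM, a log2 difference of -0.10 (SE 0.12, adjusted p = 0.618) that became -0.19 without dorsal preconditioning 2 (SE 0.10, adjusted p = 0.189). With 1 library left out it ran from -0.19 to -0.05. Grin1 averaged 554 ± 144 and 549 ± 114 CPM, a log2 difference of 0.0057 (SE 0.18, adjusted p = 0.987), which ran from -0.10 to 0.11 with 1 library left out. In this comparison edgeR called 26.7% of 13640 genes and 0 of the 4, and the ranges were separate for 19.1% of genes and 0 of the 4. The comparisons within a region and between regions share libraries, so their values are not independent of each other.

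The order of the group means differed between the genes. For Grin1 it was dorsal control, ventral control, ventral preconditioning and dorsal preconditioning, from 620 down to 549 CPM. Gria1 ran from dorsal control at 417 through ventral control and dorsal preconditioning to ventral preconditioning at 323 CPM. For Grin2a dorsal preconditioning stood highest at 28.1 CPM, followed by dorsal control, ventral preconditioning and ventral control at 21.2 CPM. Grin2b ran from ventral preconditioning at 19.6 through ventral control and dorsal preconditioning to dorsal control at 16.7 CPM. In each of these orders the ranges of neighbouring groups overlapped, so no neighbours were separated beyond their spread.

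The balance of the alternative NMDA receptor partners was described by the log2 ratio of Grin2a to Grin2b within each library, from log2 CPM with a prior count of 2. Because transcript length was not taken into account, its differences between libraries can be read but not its level. In dorsal controls 1 to 5 it was 1.02, 0.57, 0.62, -1.32 and 0.91, and in dorsal preconditioning 1 to 5 it was 0.78, 0.45, 0.92, 0.64 and 0.71. Dorsal control 4 lay far below the other dorsal libraries. In ventral controls 1 to 5 the ratio was 0.67, -0.13, 0.29, -0.12 and 0.11, and in ventral preconditioning 1 to 5 it was -0.03, -0.16, 0.63, 0.42 and -0.03. Of the 10 ventral libraries 8 lay below every dorsal library other than dorsal control 4. Dorsal control 4 itself lay below all 10 ventral libraries, and it was set aside here after the values were seen.

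The group means of this ratio were 0.36 ± 0.96 in dorsal controls, 0.70 ± 0.17 in dorsal preconditioning, 0.16 ± 0.33 in ventral controls and 0.17 ± 0.34 in ventral preconditioning (SD, n = 5 each). Single libraries moved 3 of these means by over 1.5 times. The dorsal control mean was 0.78 without dorsal control 4, 0.20 without dorsal control 1 and 0.22 without dorsal control 5. The ventral control mean was 0.04 without ventral control 1, and the ventral preconditioning mean was 0.05 without ventral preconditioning 3 and 0.10 without ventral preconditioning 4. With all libraries, the means were higher in the dorsal region in both conditions, and the ranges of the regions overlapped in both. This ratio was not tested.

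**Figure D3:**
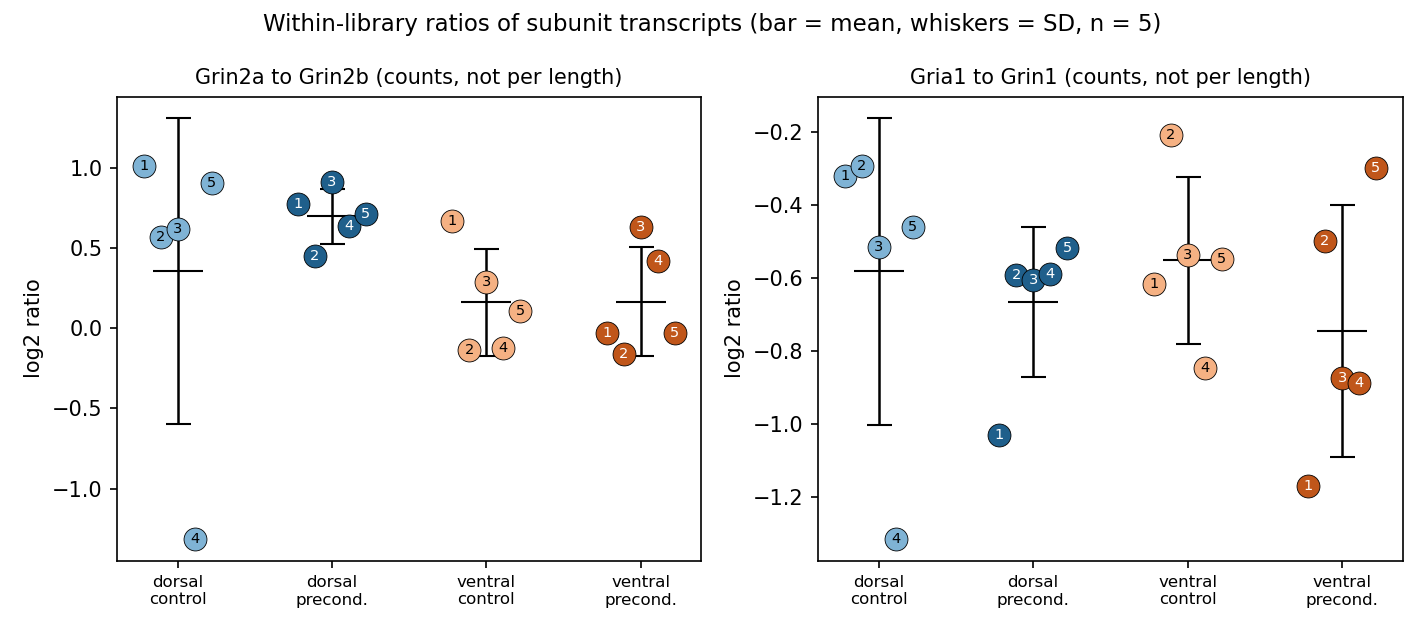
Log2 ratio of Grin2a to Grin2b (left) and of Gria1 to Grin1 (right) in each library, by group, with mean and SD (n = 5). Points carry the replicate number. Dorsal control 4 lies lowest in both panels, at -1.32.

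The log2 ratio of the AMPA receptor transcript Gria1 to the NMDA receptor transcript Grin1 was described in the same way. It was -0.32, -0.29, -0.52, -1.32 and -0.46 in dorsal controls 1 to 5, and -1.03, -0.59, -0.61, -0.59 and -0.52 in dorsal preconditioning 1 to 5. All 5 dorsal preconditioned values lay below those of dorsal controls 1, 2, 3 and 5, by little in the case of number 5, and dorsal control 4 was lower still. In ventral controls 1 to 5 it was -0.62, -0.21, -0.54, -0.85 and -0.55, and in ventral preconditioning 1 to 5 it was -1.17, -0.50, -0.88, -0.89 and -0.30. Here 3 preconditioned libraries lay below all controls and the other 2 inside their range. The group means ran from -0.55 ± 0.23 in ventral controls to -0.75 ± 0.35 in ventral preconditioning (SD, n = 5 each), with dorsal controls at -0.58 ± 0.42 and dorsal preconditioning at -0.67 ± 0.21, so they differed by less than the spread within groups.

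The depth of the 4 genes differed widely. Grin1 had 1876 to 12843 counts per library and Gria1 1222 to 8337, for which counting error alone gives coefficients of variation of at most 2.31% and 2.86%. Grin2a had 58 to 522 counts and Grin2b 52 to 338, with counting errors of up to 13.1% and 13.9%. The coefficients of variation within groups ran from 14.6% to 26.0% for Grin1 and from 9.77% to 21.4% for Gria1, above counting error in every group. They ran from 22.5% to 48.8% for Grin2a and from 15.5% to 29.0% for Grin2b.

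That scatter was set beside genes of similar abundance. The SD of log2 CPM within groups was 0.64 for Grin2a, larger than in 99.1% of the 4503 genes within 2-fold of its level, whose median was 0.23. Without dorsal control 4 it was 0.43, still larger than in 95.6% of them. Grin1 had an SD of 0.30, larger than in 88.8% of 491 genes of similar level. Grin2b and Gria1 were nearer the middle, with 62.6% and 70.1% of their like genes below them. These shares describe the 20 libraries and were not tested.

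In some libraries the 4 genes were high or low together, and in others they were not. Dorsal control 3 and ventral preconditioning 3 each held the highest value of their group for all 4 genes, and ventral control 3 did so for Grin1, Grin2a and Gria1. Over 4 genes and 4 groups, libraries numbered 3 were highest in 12 of 16 cases and lowest in 0. Of these, dorsal preconditioning 3 was highest for Grin2a only, and for 20.1% of all genes that passed the filter. Outside the controls the numbers did not pair libraries by the rule used. Dorsal preconditioning 2 was lowest for all 4 genes. Ventral control 4 and ventral preconditioning 1 were each lowest for 3 of the 4, with Grin1 0.16 and 0.24 above its group mean. Of all genes that passed the filter, dorsal control 3 was highest for 21.5%, ventral control 3 for 23.2% and ventral preconditioning 3 for 26.1%, and dorsal preconditioning 2 was lowest for 29.6%. This pattern was noticed in the values and was not tested, and its part in the comparisons above is limited to what the fits without single libraries show.

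**Figure D4:**
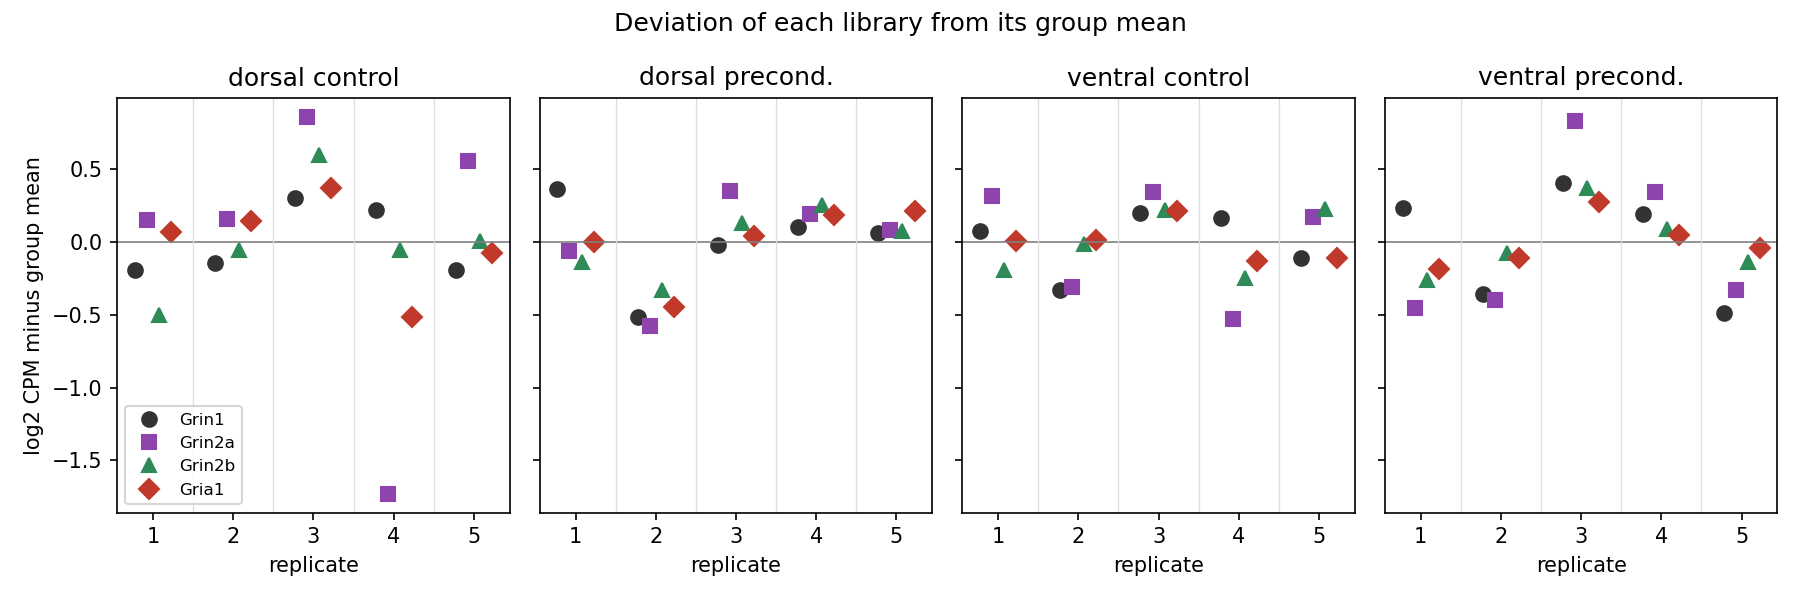
Log2 CPM of each gene minus the mean of its group (vertical axis) by replicate number, in the 4 groups. In dorsal control 3 and ventral preconditioning 3 all 4 genes lie above 0, and in dorsal preconditioning 2 all 4 lie below. Dorsal control 4 has Grin1 above 0 and Grin2a at -1.73.

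Dorsal control 4 did not lower the 4 genes alike. Relative to its group mean, Grin1 was 0.22 higher, Grin2b was close to it at -0.05, and Gria1 and Grin2a stood at -0.52 and -1.73 on the log2 scale. In this library the NMDA receptor core subunit and GluN2A transcripts thus went opposite ways. This was not particular to it. Grin1 and Grin2a stood at 0.16 and -0.53 in ventral control 4, and at 0.24 and -0.46 in ventral preconditioning 1. The split was reversed in ventral control 5, at -0.11 and 0.18. Dorsal control 1 stood at -0.19 and 0.15, but dorsal control 4 itself lowered the Grin2a mean of that group.

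Among 12649 genes with a mean count of at least 20, the one most like each receptor gene was sought by Pearson correlation of log2 CPM over the 20 libraries. Those correlations include differences between groups and shared library effects, and they are the highest of many. For Grin1 it was ENSRNOG00000012764, with r = 0.96 (Spearman rho 0.97), and for Grin2a it was ENSRNOG00000034007, with r = 0.96 (rho 0.92). For Grin2b and Gria1 the closest genes were less alike, ENSRNOG00000037960 with r = 0.79 (rho 0.68) and ENSRNOG00000011211 with r = 0.85 (rho 0.82). The gene closest to Grin2a measured 50.4 ± 19.7 CPM in dorsal controls, 50.8 ± 10.2 in ventral controls, 62.2 ± 12.9 in dorsal preconditioning and 52.8 ± 12.7 in ventral preconditioning (SD, n = 5 each). Like Grin2a, it had its highest mean in dorsal preconditioning and its largest spread in dorsal controls. Such likeness follows in part from choosing it by correlation over the same libraries. Unlike Grin2a, its mean was not lower in ventral than in dorsal controls.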

How the data were processed

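The authors deposited 1 table of raw counts per Ensembl rat gene ID, with 1 column per library and no normalization. STAR, DESeq2 and the build Rnor_5.0 are named in the submitters' processing notes, without versions or roles. The counting tool, the annotation and the use of strand are not given in the sources used here, so reads shared with paralogs or overlapping genes may have been split or dropped. Per the labels' protocols, the RNA came from Trizol extraction and the library kit was TruSeq Stranded mRNA LT. Groups come from the sample titles. Treated libraries have the letter e in the column names and p in the titles, and were matched by number and region letter on the assumption that both letters mean the same treatment.

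Genes were filtered with filterByExpr, scaled by TMM and tested with edgeR 4.0.16 (R 4.3.3; glmQLFit with robust=TRUE, glmQLFTest), on 10 libraries per comparison and on 20 for the interaction. Standard errors are the log2 fold change divided by the square root of F, and 95% intervals use the test's degrees of freedom. CPM values were scaled over all 20 libraries. Ratios between genes were differences of log2 CPM (prior count 2), recomputed with no prior count and with each library left out. The script was tested on simulated counts. Alternatives were DESeq2 1.42.0, its size factors, other filters, limma-voom 3.58.1, robust=FALSE, 1 fit of all libraries, a replicate block, and libraries left out.

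Same-numbered dorsal and ventral controls deviated together in 5 of 5 pairs (r from 0.20 to 0.39), so numbers in the titles were taken as pairs there. The genes, lists and tests were chosen with earlier results of these data known. Genes named besides the 4 are, by rule, the 1 closest to each over the libraries. Lists of other receptor genes, scaffolds and cell type markers had been written by symbol and were not used, as 0 IDs matched. Figures were drawn with matplotlib 3.10.9.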

Additional observations from a re-analysis of the deposited data

Results flagged for a closer look

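Single libraries distant from their own group were searched for in 24 groups of 5 values (4 genes and 2 ratios in 4 groups). The search marked 3, where chance marks about 1 in 20 independent groups. The 24 are not independent, since the ratios are built from the same genes, so the 3 cannot be weighed against that rate. Genes were searched on CPM and ratios on log2 values. The log2 ratio of Grin2a to Grin2b was -1.32 in dorsal control 4, with the other dorsal controls between 0.57 and 1.02. The log2 ratio of Gria1 to Grin1 was -1.32 in the same library, with the others between -0.52 and -0.29. That ratio was -1.03 in dorsal preconditioning 1, with the rest of its group between -0.61 and -0.52.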

How the results depend on the processing

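Over 416 alternative fits of the 4 genes, 0 were called and adjusted p-values ran from 0.0514 to 1.0. The sign changed in 43 of them, all with estimates of at most 0.19 in size. Between preconditioned regions, the fit without the 4 libraries named below was the same as without dorsal preconditioning 2. Both are counted here. For ventral Grin1 the log2 fold change was 0.00028 with DESeq2, 0.00013 with DESeq2 size factors, 0.0024 with every gene of at least 1 count, and 0.024 with limma-voom. Preconditioned Grin1, ventral minus dorsal, was -0.017 at a mean count of at least 50 and -0.0072 with the replicate block. With limma-voom the interaction was 0.040 for Grin2a and -0.12 for Grin2b. Without ventral control 2 and ventral control 4, ventral Grin2a was -0.11 and ventral Grin2b -0.023. Without dorsal preconditioning 2, preconditioned Grin1 was -0.10. Without 4 libraries (dorsal control 4, ventral control 2, ventral control 4 and dorsal preconditioning 2), the interaction was -0.034 for Grin1 and -0.11 for Grin2b. The cause was not tested.

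Leaving out 1 library at a time gave dorsal effects from -0.28 to -0.07 for Grin1, -0.042 to 0.41 for Grin2a, -0.083 to 0.21 for Grin2b and -0.39 to -0.19 for Gria1. Ventral effects ran from -0.11 to 0.10, -0.11 to 0.25, -0.026 to 0.13 and -0.30 to -0.18 in the same order. Control differences ran from -0.21 to -0.08, -0.48 to -0.0036, 0.04 to 0.34 and -0.26 to -0.05. Preconditioned differences ran from -0.10 to 0.11, -0.55 to -0.18, 0.10 to 0.26 and -0.19 to -0.05. Interactions ran from 0.06 to 0.28, -0.32 to 0.19, -0.14 to 0.16 and -0.042 to 0.17.

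The number of genes called over the whole table was 37 in the dorsal comparison. It was 169 with DESeq2, 172 with limma-voom and 97 in 1 fit of all libraries. It was 105 without dorsal control 4 and dorsal preconditioning 2 together, and 15 to 50 with 1 left out. The ventral 672 became 1085 with DESeq2, 1508 with limma-voom, 1261 with the replicate block and 432 to 1029 with 1 left out. The interaction's 11 became 55 with DESeq2, 100 with limma-voom, 62 with the replicate block, 17 without the 4 libraries and 6 to 20 with 1 left out. Between regions, leaving out 1 library gave 2736 to 3941 calls in controls and 2917 to 3678 after preconditioning. Outside the controls the numbers did not pair the libraries by the rule used: 0 of 5 dorsal, 3 of 5 ventral and 4 of 5 preconditioned pairs correlated above 0.1, and 0, 2 and 2 of them correlated best with their own number.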
